A study of Arabidopsis thaliana with 12 samples.

Results

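SARD4 (AT5G52810) is a single Arabidopsis thaliana gene, 1 of 690 that had a probe of their own among the 3439 probes of an expression array. The gene was selected on its intensity in all 12 samples, its rank among all probes and its difference between same-numbered samples of both groups, so these values are a description and SARD4 itself is given no test. All samples were total RNA of wild-type plants of the ecotype Columbia 0, and the plant part is not given in the sources used here. The 6 recovered samples came from plants given 1 h of light stress at 1000 µE, then returned to 80 µE for 48 h. The 6 control samples came from plants grown at 80 µE, titled as time 0, and a control harvested after the same 48 h is not among the samples described. The light stress, plant age and time of harvest cannot be told apart in these groups.

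SARD4, named for a mutant deficient in systemic acquired resistance, is a plastid reductase. Plants make pipecolic acid from lysine: the aminotransferase ALD1 converts lysine to dehydropipecolic acid, and SARD4 reduces that intermediate to pipecolic acid. The monooxygenase FMO1 then hydroxylates pipecolic acid to N-hydroxypipecolic acid, a signal that primes distant leaves against pathogens, and the glucosyltransferase UGT76B1 inactivates it.

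SARD4 was brighter in all 6 recovered samples than in any of the 6 controls. The deposited intensity, a linear value with unstated background correction and scaling, was lowest at 0.633, had a median of 0.831 and was highest at 1.16 in recovered samples, against 0.143, 0.230 and 0.391 in controls. The groups did not overlap, and the dimmest recovered sample lay 0.243 units above the brightest control. The mean intensity was 0.851 ± 0.221 in recovered and 0.239 ± 0.0843 in control samples (SD, n = 6 each). The labels do not say if a group's samples are separate harvests, and these SDs may be partly technical. In whole-tissue RNA, more cells that express SARD4 and more SARD4 transcript per cell cannot be told apart.

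Taken by replicate number, SARD4 was brighter in the recovered sample in 6 of 6 pairs. Recovered 1 had an intensity of 1.16 against 0.391 in control 1, and recovered 2 had 1.01 against 0.231 in control 2. Recovered 3 and recovered 4 were nearly equal at 0.636 and 0.633, against 0.186 in control 3 and 0.254 in control 4. Recovered 5 had 0.717 against 0.230 in control 5, and recovered 6 had 0.945 against 0.143 in control 6. The fold within a pair, from the deposited values, ran from 2.50 in pair 4 to 6.63 in pair 6, with a median of 3.27. The wide fold of pair 6 came with the lowest control of all, and recovered 6 itself lay below recovered 1 and recovered 2.

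**Figure D1:**
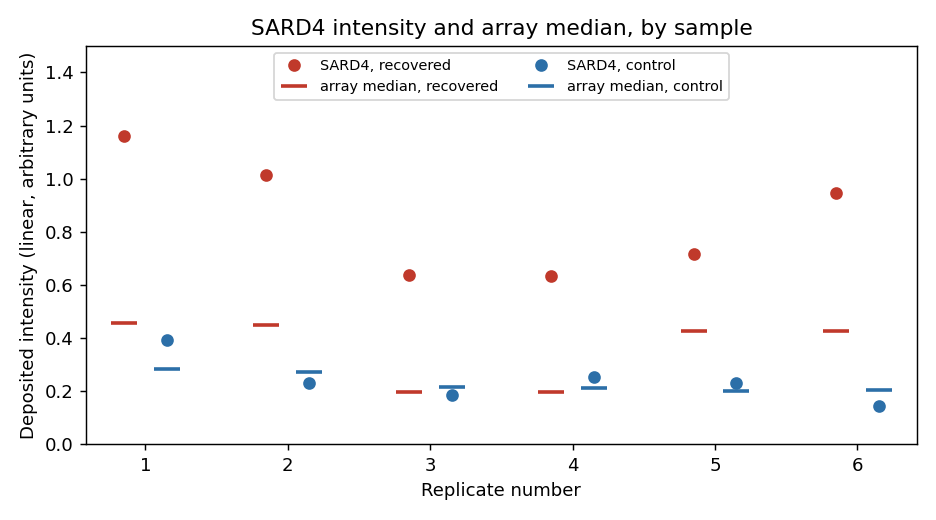
SARD4 deposited intensity (dots, linear arbitrary units) and the median intensity of all 3439 probes on the same array (bars), for recovered and control samples by replicate number. All 6 recovered dots lie at 0.633 or above and all 6 control dots at 0.391 or below, while the array median was 0.426 to 0.458 in recovered 1, 2, 5 and 6 and 0.196 to 0.284 in all other samples.

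The arrays themselves differed in median intensity, in part along the groups. The summed intensity ran only from 2874 in control 5 to 3406 in recovered 2, so the arrays were not simply scaled copies of each other. The log2 array median in the recovered sample minus that in the same-numbered control was 0.69 and 0.72 in pairs 1 and 2, -0.14 and -0.12 in pairs 3 and 4, and 1.10 and 1.08 in pairs 5 and 6. In pairs 3 and 4, where the recovered array had a slightly lower median than its control, SARD4 was still 3.42-fold and 2.50-fold brighter. Set against the median of its own array, SARD4 stood at 1.68 to 3.24 times that median in recovered samples and at 0.704 to 1.38 times in controls. Relative to the array median the fold within a pair ran from 1.46 in pair 5 to 3.77 in pair 3, so the order of the pairs changed with the scale.

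The rank of SARD4 among all probes of an array does not depend on the scale of that array. Counted from the brightest, it held places 516 to 991 of 3439 in recovered samples (median 676) and places 1352 to 2078 in controls (median 1723). As a percentile the mean was 79.7 ± 4.57 in recovered and 49.8 ± 7.97 in control samples (SD, n = 6 each). SARD4 was thus a mid-range probe in controls and in the upper part of the array after recovery. Within pairs it moved up by 581 places in pair 5 to 1419 places in pair 6. Probes differ in signal per transcript, so a rank gives the place of the probe and not the abundance of the transcript relative to other genes.

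**Figure D2:**
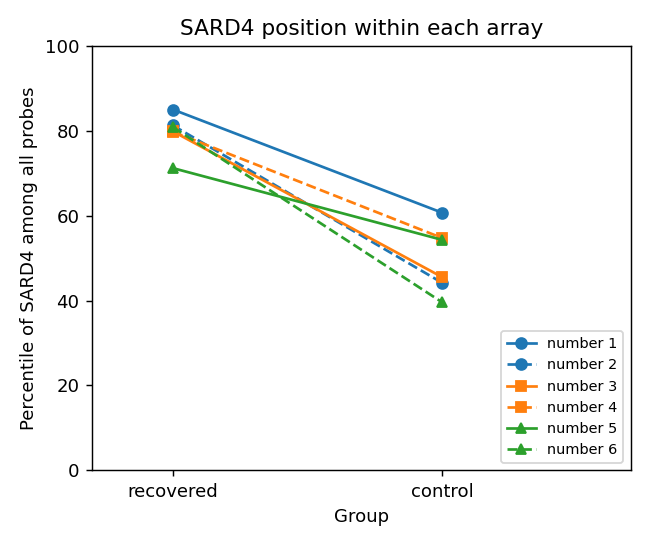
Percentile of SARD4 among the 3439 probes of each array, with lines joining the recovered and control samples of the same number. The 6 recovered samples lie at 71.2 to 85.0 and the 6 controls at 39.6 to 60.7.

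Percentiles of the 2 groups did not overlap for 58 of 3177 tested probes with the recovered samples above, or 1.83%, SARD4 among them. A mean percentile gain at least as large as its 29.8 points was seen for 15 probes, or 0.472%. A recovered sample above its control in 6 of 6 pairs was more common, at 18.9% of tested probes on the deposited scale and 8.66% after quantile normalisation. SARD4 was selected on these same values, so the shares say nothing further about it.

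To compare probes on a common scale, arrays were quantile normalised, values under a floor of 0.0322 were raised to it, and log2 was taken. On this scale SARD4 averaged -0.39 ± 0.27 in recovered and -1.77 ± 0.33 in control samples (SD, n = 6 each). The log2 difference was 1.38 (moderated SE of the limma fit 0.23), or 2.60-fold. The lowest, median and highest values were -0.87, -0.37 and -0.03 in recovered samples, against -2.21, -1.77 and -1.32 in controls. No SARD4 value was near the floor: the dimmest, in control 6, was 4.42 times the floor as deposited. On the same scale the median difference of all tested probes was 0.00. Quantile normalisation gives every array the same distribution, so a median near 0 was set in advance and does not show that no general shift took place. A probe was called where limma gave a Benjamini-Hochberg adjusted p under 0.05 over all tested probes, which held for 28 higher probes (0.881%) and 41 lower probes (1.29%), and for 9 to 26 higher probes when 1 sample was left out. By size alone, the SARD4 difference was the 82nd highest of the 3177 tested probes.

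**Figure D3:**
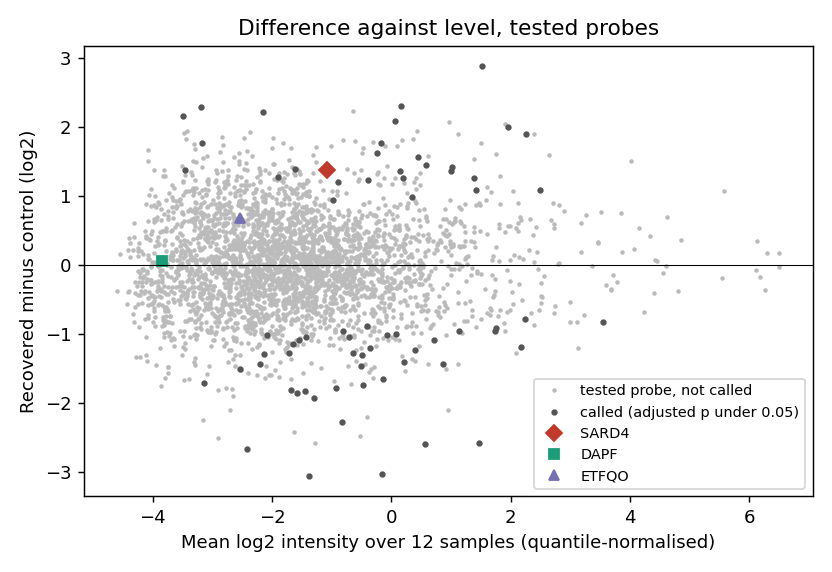
Recovered minus control log2 difference against the mean log2 intensity over 12 samples for the 3177 tested probes (quantile-normalised), with called probes in dark grey and SARD4, DAPF and ETFQO marked. SARD4 lies at 1.38, ETFQO at 0.68 and DAPF at 0.05.

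SARD4 varied little within a group. Its SD of 0.27 in recovered samples compares with a median SD of 0.65 over tested probes, and 12.5% of probes had a smaller one. In controls its SD was 0.33 against a median of 0.72, and 13.2% of probes had a smaller one. SARD4 was selected on these same values, and groups that do not overlap favour a small SD, so the shares only describe it. The tested probes also include dim ones near the floor. Recovered 5 was the lowest recovered sample at -0.87, with the other recovered samples between -0.41 and -0.03.

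Adjacent replicate numbers (1 and 2, 3 and 4, 5 and 6) gave the more similar arrays, with Pearson's r across tested probes of 0.854 to 0.939 against 0.650 to 0.794 for other samples of a group. The labels do not say whether adjacent numbers are repeat readings of 1 RNA. For SARD4 the adjacent numbers were not the closer ones: their mean absolute log2 difference was 0.41, against 0.34 between other samples of a group. The medians over tested probes were 0.44 and 0.91, and 90.7% of tested probes had the smaller value for adjacent numbers. With adjacent numbers averaged, the difference of recovered minus control was 1.49 for numbers 1 and 2, 1.35 for 3 and 4 and 1.29 for 5 and 6. These 3 values had an SD of 0.10, less than the SD of 0.41 among the 6 single pairs. The SE of the SARD4 difference in the fit was 0.39 with adjacent numbers averaged, against 0.23 with 6 samples per group. Both are moderated SEs, which limma draws toward the variance of all tested probes, and do not measure the spread of SARD4 alone. From SARD4's own values, with 6 samples per group, the SE was 0.17. No probe of the array was called in the averaged fit, with 164 at an unadjusted p under 0.05.

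The difference stayed positive in all 26 other settings run, between 1.28 and 1.86. The highest value came without further scaling of the deposited values, where the median of all tested probes was itself at 0.47, which left SARD4 1.39 above that median. With the array medians aligned it was 1.31, with a median of all tested probes of -0.07, which the alignment itself brings near 0. Since the groups did not overlap when the gene was chosen, leaving out samples could hardly turn the direction.

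**Figure D4:**
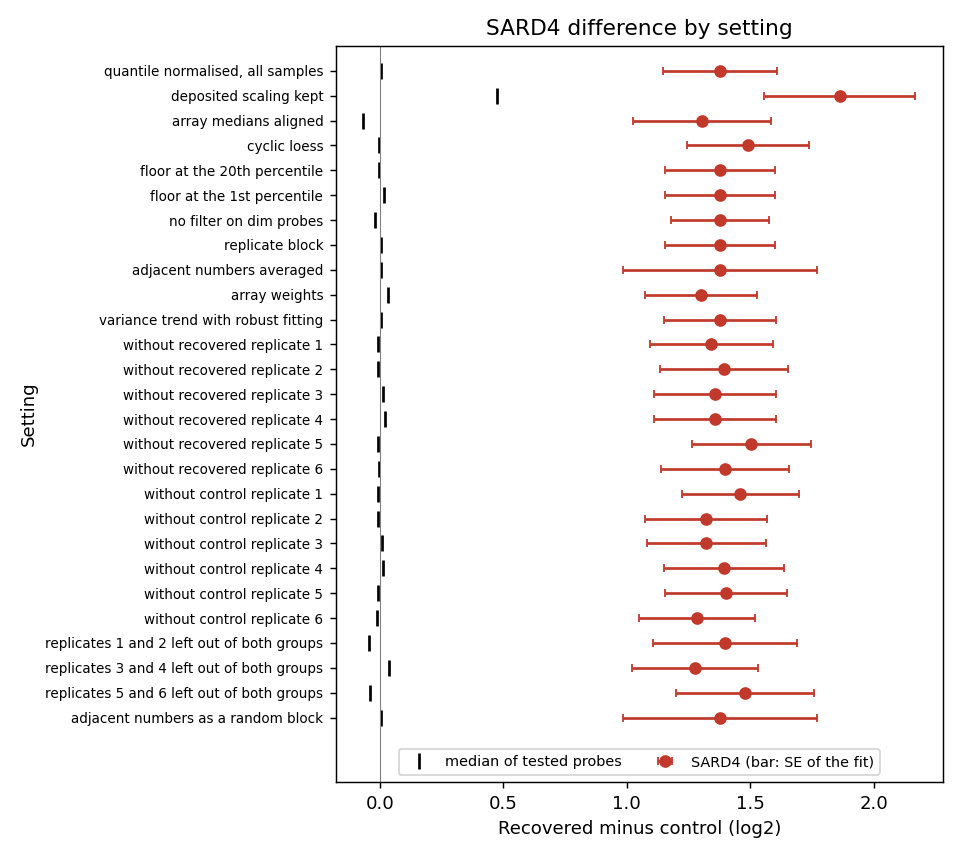
SARD4 log2 difference, recovered minus control, under each setting (dots, bars are the SE of the limma fit), with the median difference of all tested probes as a black tick. The dots lie between 1.28 and 1.86, and the median tick leaves the region of 0 with the deposited scaling, at 0.47.

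The neighbouring steps of the pathway were mostly not covered by a probe of their own. Of 51 genes on 6 lists (pipecolic acid synthesis, plastid lysine synthesis, lysine and pipecolic acid breakdown, salicylic acid synthesis, regulators of acquired resistance and pathogenesis-related genes), 3 had a probe assigned to a single gene: SARD4, DAPF and ETFQO. ALD1, FMO1 and UGT76B1 were not analysed here, nor was any gene of the salicylic acid, regulator and pathogenesis-related lists. Apart from SARD4, limma called 0 of 2 tested list members, with 0 at an unadjusted p under 0.05, against 0.881% of all tested probes called higher, 1.29% called lower and 580 probes (18.3%) at an unadjusted p under 0.05. With 2 members, 0 is also what these shares give. None of 10 marker genes for mesophyll, guard cells, phloem, epidermis and root had such a probe, so the plant part could not be checked.

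DAPF (AT3G53580) encodes diaminopimelate epimerase, which acts near the end of lysine synthesis in the plastid and so upstream of SARD4's substrate. Its log2 intensity was lowest at -4.95, had a median of -4.34 and was highest at -2.08 in recovered samples, against -4.95, -3.86 and -2.70 in controls. The control values lay within the range of the recovered ones. DAPF was a dim probe, with 4 of 12 samples at the floor and 3 of them listed at 0 in the deposited values. The log2 difference was 0.05 (SE 0.61, limma 95% interval -1.27 to 1.37, adjusted p = 0.974), and the recovered sample was higher in 3 of 6 pairs. The fit takes the 6 samples of a group as separate, so the interval is too narrow if adjacent numbers are repeat readings. The sign of the DAPF difference was not settled, since it was -1.26 with numbers 3 and 4 left out of both groups and -0.61 with array weights.

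ETFQO (AT2G43400) encodes the ubiquinone oxidoreductase that passes electrons from the mitochondrial breakdown of lysine and branched-chain amino acids to the respiratory chain. Its log2 intensity was lowest at -2.94, had a median of -2.16 and was highest at -1.56 in recovered samples, against -3.93, -2.97 and -1.11 in controls. Control 5 was the highest sample of all, and the groups overlapped. The log2 difference was 0.68 (SE 0.45, limma 95% interval -0.29 to 1.65, adjusted p = 0.438), with the recovered sample higher in 5 of 6 pairs. As for DAPF, the interval is too narrow if adjacent numbers are repeat readings. ETFQO did not pass the test in any of the settings run (adjusted p = 0.162 to 0.943).

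Genes with a pattern like that of SARD4 were sought among the 630 other tested probes with 1 gene, by Pearson's r of log2 values over the 12 samples. The points share arrays and, for adjacent numbers, perhaps RNA, and SARD4's large group difference sets much of r, so no p is given. The closest was the chromatin remodelling gene chr31 (AT1G05490), with r = 0.88. It was followed by the clock-controlled CCR-like gene CCL (AT3G26740) with r = 0.87, AT3G13150, of a pentatricopeptide repeat protein, with r = 0.86, the kelch-repeat F-box gene AT4G39760 with r = 0.85, and AT1G12100, of the lipid-transfer protein type, with r = 0.85. All 5 were brighter in the recovered sample in 6 of 6 pairs, as were 8.66% of all tested probes on this scale. Picking genes by this r favours such a count, so it is no separate result. CCL had medians of 3.16 in recovered and 1.41 in control samples, and its likeness to SARD4 came from the group difference: within groups its r was -0.06. Within groups r was 0.40 for chr31, 0.11 for AT3G13150, 0.16 for AT4G39760 and 0.17 for AT1G12100.

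Likeness within groups, taken as r of the deviations from the group means over the 12 samples, is not set by the group difference. It was highest for AT5G46390, which encodes a carboxy-terminal processing peptidase, with r = 0.82. It was 0.93 in recovered samples alone and 0.73 in controls alone. These values are parts of the r by which the gene was picked from 630 probes, and are no separate support. Both genes were highest in number 1 of each group, and lowest in recovered 5 and control 6, where AT5G46390 was at the floor, as it also was in control 3. Without the 2 samples farthest from their group mean in SARD4, recovered 5 and control 1, the r of AT5G46390 was 0.65. The next were DME (AT5G04560), a DNA glycosylase that removes methylated cytosine, with r = 0.71, and AT5G61450 with r = 0.70. DME was at the floor in recovered 5 and control 6, and AT5G61450 in recovered 5, control 5 and control 6, and without recovered 5 and control 1 their r was 0.49 and 0.54. SPPA (AT1G73990), a light-induced protease of the thylakoid, had r = 0.65 within groups. Its medians were -2.07 in recovered and -1.48 in control samples, opposite in order to those of SARD4. The direction for SPPA was not settled: its log2 difference of -0.56 was not called by limma. SPPA was still higher in the recovered sample in 2 of 6 pairs. The copper amine oxidase gene AT2G42490 followed with r = 0.64. Without recovered 5 and control 1, r was 0.71 for SPPA and 0.62 for AT2G42490. SPPA then stood above AT5G46390, so the order of these genes was not stable. Over all 630 probes the 5th and 95th percentiles of r within groups, with all 12 samples, were -0.50 and 0.46. The named genes are the extremes of that range.

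**Figure D5:**
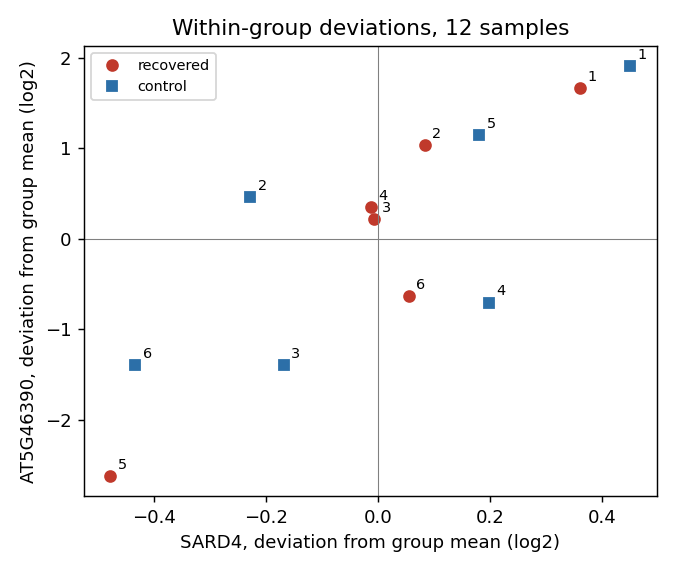
Deviation of AT5G46390 from its group mean against that of SARD4, both in log2 units, for 6 recovered and 6 control samples marked by replicate number. Number 1 of both groups lies at the upper right and recovered 5 at the lower left.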

How the data were processed

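Per the labels, total RNA of 12 samples was measured on an expression array, and groups and replicate numbers were taken from the sample titles. The deposited intensity values, 1 per probe and sample on a linear scale, were used as they stand; how the authors corrected background, scaled or averaged spots is not given in the sources used here. They were never negative, and the maximum was 100 in 11 of 12 samples. All per-sample columns were used, and the number of arrays limits the precision.

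Arrays were quantile normalised, values under the 5th percentile of positive values (0.0322) were raised to it, and log2 was taken. Probes with at least 6 samples above the floor as deposited were tested: 3177 of 3439. A two-sided moderated test of recovered minus control was fitted to all tested probes with limma 3.58.1 under R 4.3.3, and p-values were adjusted over all of them. On simulated data for these 3177 probes, 200 of them changed, the procedure recovered 22.3% of probes changed by a log2 value of 1 and 68.4% of those changed by 2, with 4.84% false calls. The simulated samples were drawn independently, without the likeness of adjacent replicate numbers, the floor or the normalisation. These rates may therefore not hold for the data themselves.

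Names came from a table pairing probes with the platform's annotation (692 with a single gene, 870 with several, 1877 with none), and genes are named only from the 692. Current symbols came from the RefSeq table of assembly TAIR10.1, with exceptions. That table has AT5G52810 by its locus tag only, so the symbol SARD4 was set by hand. DAPF and ETFQO are named as on the lists. No coordinates are printed, as the array's own build is unstated. Deviations of same-numbered samples correlated at 0.11 to 0.49 over tested probes, and 12 of 12 samples were best matched by their own number. For numbers 3 and 4 the margin was small, at 0.11 against up to 0.09 for another number. Same-numbered samples are therefore set side by side as pairs on the basis of the titles and, less firmly for numbers 3 and 4, of the data. The fit behind all calls, SEs and p-values is unpaired, and blocking on the replicate number was run as an alternative. The gene, the lists and the settings were chosen with earlier results of these data known. The rule for named genes took SARD4, every list member with a probe of its own, and by Pearson's r the 5 genes most like SARD4 over 12 samples and the 5 most and 5 least like it within groups.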

Additional observations from a re-analysis of the deposited data

How the results depend on the processing

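SARD4's log2 difference of 1.38 moved by more than its within-group SD of 0.30 in 1 of 26 other settings, to 1.86 without further scaling of the deposited values. Leaving out a single sample gave 1.28 to 1.51. The replicate block left the difference at 1.38 (SE 0.22) and gave 42 higher and 43 lower probes, and it called neither DAPF nor ETFQO. The counts of 28 higher and 41 lower probes (40.6% higher) were 29 and 6 (82.9% higher) without further scaling, 15 and 53 with array medians aligned (22.1% higher), 47 and 74 with the floor at the 20th percentile, 41 and 62 with no filter on dim probes, 92 and 147 with array weights, and 43 and 66 with a variance trend and robust fitting. They were 6 and 5 without numbers 1 and 2, 159 and 192 without 3 and 4, 3 and 2 without 5 and 6, 0 and 0 with adjacent numbers averaged, and 0 and 1 with them as a random block, a setting added after seeing the data; the cause was not tested. Without a single sample they were 9 to 26 and 11 to 37, and each removal but that of recovered 3 or recovered 4 moved a count by over 1.5 times. Neither DAPF nor ETFQO, the only other list members tested, was called in any setting, several of which called almost no probe. ETFQO kept its direction in 26 of 26 settings (0.42 to 1.41). DAPF, at 0.05 and tested in 24 of 26 settings, was -0.61 with array weights, -1.26 without numbers 3 and 4 and -0.30 to 0.29 without a single sample.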

Other observations

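Among the 630 other tested probes with 1 gene, the lowest within-group likeness to SARD4, as Pearson's r of deviations from the group means over 12 samples, was that of AT3G59980 at -0.70. AT3G27180, AT5G63390 and AT3G51510 followed at -0.68 each, and AT3G22150 at -0.64. AT3G27180 was at the floor in 2 samples. Without recovered 5 and control 1, r was -0.69 for AT3G27180, -0.61 for AT3G51510 and -0.51 for AT3G59980. It was -0.48 for AT5G63390 and -0.46 for AT3G22150, so the order of these genes was not stable. AT3G51510 was higher in the recovered sample in 1 of 6 pairs, with log2 medians of -2.26 in recovered and -1.75 in control samples. AT3G22150, which encodes a pentatricopeptide repeat protein, was higher in the recovered sample in 5 of 6 pairs, with medians of -1.38 in recovered and -2.73 in control samples. The difference of its group means was smaller, at 0.78, and 1 of its 12 values was at the floor.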
